A study of Zea mays with 4 samples.

Results

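The genes described here are 5 nuclear maize genes of carotenoid synthesis and cleavage, among them steps towards abscisic acid: psy1, lcyE, zep1, ccd1 and vp14. They were picked by locus identifier for their place in the pathway, by a rule that uses no measured value although earlier results of these data were known, and all 5 were found among the 46430 loci of the deposited count table. The table gives identifiers only, and the gene names came with the choice of genes. RefSeq's maize gene table (assembly Zm-B73-REFERENCE-NAM-5.0) holds a record under the name of psy1, lcyE, ccd1 and vp14, and each of these 4 records lies on the same chromosome as the deposited locus. The name zep1 was not matched there. Whole seedlings of wild-type maize B73, the inbred line of the reference genome, spent 9 days in pots of soil in a growth chamber (25 to 28 °C, a photoperiod of 16 h and 8 h of darkness). Control plants then stayed under these conditions and cold plants were kept at 4 °C for 24 h, and seedlings of 10 plants aged 10 days were collected. RNA-seq gave 2 control and 2 cold libraries, and the comparison asks how transcript abundance differed after a day at low temperature, in a study of nucleosome stability under cold.

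Carotenoids are made in plastids from isoprenoid units. Phytoene synthase makes the first carotenoid, the lycopene cyclases split the pathway into the branch that ends in lutein and the branch that gives β-carotene and zeaxanthin, and zeaxanthin epoxidase turns zeaxanthin into violaxanthin. In leaves these pigments harvest light and protect the photosystems, and the return from zeaxanthin to violaxanthin is an arm of the xanthophyll cycle. Cleavage of 9-cis-epoxycarotenoids downstream of violaxanthin yields xanthoxin, from which abscisic acid, a hormone of water and cold stress, is formed.

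The libraries held 28493929 and 23713326 fragments assigned to genes in control and 24176378 and 20942576 in cold. A floor of 3 fragments was worth between 0.105 and 0.143 CPM (fragments scaled to a common library size; here by library totals), and all 5 genes lay above it in every library. Whether replicate libraries stem from separate sets of plants is not in the labels. The p-values reflect the spread between these samples alone, which may be technical. For each gene edgeR takes this spread partly from the other genes (prior degrees of freedom 5.54), so p-values and SE do not rest on that gene's replicates only. In whole seedlings, fewer cells of a type and less RNA per cell cannot be told apart. Chloroplast-encoded markers of green tissue had few counted fragments. Multi-mapping reads were not counted, and the reason for the low counts was not tested. The photosystem gene psbA had 8 and 5 fragments in control and 3 and 1 in cold. psbD had 8 and 6 against 15 and 7, and psaB had 2 and 2 against 1 and 2. Counts of psbA, psbD and psaB were too low for the test. The Rubisco large-subunit gene rbcL had 286 to 449 fragments in a library. The photosystem gene psaA had 28 and 20 fragments in control and 55 and 43 in cold, and was called higher (log2 fold change 1.44, adjusted p = 0.0103, edgeR), while rbcL was not called (0.27, adjusted p = 0.199). Plastid genes held 0.0164% and 0.0187% of control fragments and 0.0248% and 0.0192% of cold fragments. The share of mitochondrial genes was 0.0767% and 0.0703% in control against 0.134% and 0.112% in cold, and the part of these organelle transcripts in the results below was not tested.

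The 5 loci differ in structure, in B73 RefGen_v4 coordinates taken from the deposited table. psy1 (Zm00001d036345) is on the plus strand of chromosome 6 (85061295 to 85065182) with 7 merged exon blocks and 2013 exon bases. lcyE (Zm00001d011210) is on the plus strand of chromosome 8 (143020695 to 143027838) with 10 blocks and 4194 exon bases. zep1 (Zm00001d003512) is on the minus strand of chromosome 2 (46296356 to 46301011) with 16 blocks and 2470 exon bases. ccd1 (Zm00001d048373) is on the minus strand of chromosome 9 (155236300 to 155242285) with 14 blocks and 2086 exon bases. vp14 (Zm00001d033222) is a single exon of 1815 bases on the minus strand of chromosome 1 (255021507 to 255023321). No other locus of the table overlaps any of the 5. In the lcyE model, 332 of 339 deposited exon rows fall in the last 3 blocks, which make up 2983 bases, 71.1% of the exon length. The level of lcyE per length therefore depends on this annotation. Its change between conditions does not use the length, but fragments from the last 3 blocks are counted in it. Which blocks the fragments came from was not tested.

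**Figure D1:**
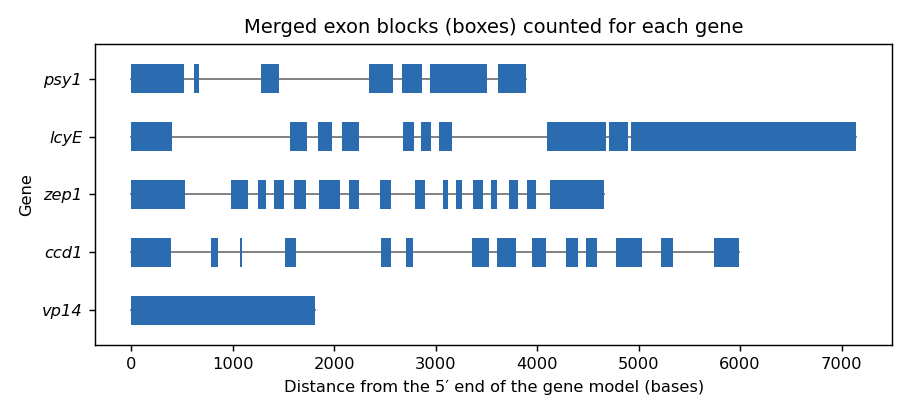
Merged exon blocks (boxes) of each gene model against the distance in bases from its 5′ end, with a line through the introns. vp14 is a single block, and blocks 8 to 10 of lcyE form a long stretch at its 3′ end.

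Of the 5 genes, 3 were higher in cold, 1 was lower and 1 was not called. vp14 rose 11.3-fold, zep1 5.36-fold and ccd1 1.59-fold, lcyE fell to 0.767 of its control level, and psy1 had a fold of 0.957. All 5 passed the filter on low counts. Each was tested with edgeR's quasi-likelihood test over 23169 genes at a Benjamini-Hochberg adjusted p under 0.05. In that test 27.0% of genes were called higher in cold and 27.0% lower, or 54.0% in either direction, so a call as such does not set these genes apart. The groups did not overlap in CPM for 4 of the 5 genes, against 79.4% of all tested genes. Changes of at least 2-fold were called higher for 15.1% of genes, and vp14 and zep1 were among them. With library totals in place of TMM factors, 20.6% of genes were called higher and 35.3% lower, and the calls of the 5 genes kept their direction. Over the 5 genes the log2 fold change ran from -0.38 for lcyE to 3.50 for vp14. The median of the 5, 0.67, is the value of ccd1 and does not describe the genes as a set. Over all genes tested the median was -0.03.

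psy1 encodes phytoene synthase, the enzyme of the first committed step of carotenoid synthesis, and is the gene of the yellow endosperm locus y1. Control replicates 1 and 2 had 11239 and 8969 fragments, and cold replicates 1 and 2 had 6326 and 7808. Scaled for library size with TMM factors these are 375 and 344 CPM in control and 271 and 418 CPM in cold. The cold libraries lay on either side of both control libraries, so the groups overlapped. The mean was 359 ± 21.6 CPM in control and 344 ± 104 CPM in cold (SD, n = 2 each). Cold against control was -0.06 ± 0.21 (SE) on the log2 scale (edgeR, adjusted p = 0.818), with a 95% interval of -0.55 to 0.43, which corresponds to folds of 0.681 to 1.35. The cold libraries differed from each other by 1.54-fold, and the sign of the change rested on which library was used. Without cold replicate 1 the log2 fold change was 0.22 (adjusted p = 0.214, edgeR), without cold replicate 2 it was -0.40 (adjusted p = 0.0508), and without control replicate 1 it was 0.01 (adjusted p = 0.976), and over all 12 alternatives the adjusted p lay between 0.0508 and 0.976.

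lcyE encodes lycopene ε-cyclase, which directs lycopene towards α-carotene and lutein. It was counted with 3918 and 3284 fragments in control against 2276 and 1860 in cold. The levels were 131 and 126 CPM in control against 97.5 and 99.5 CPM in cold. Both cold libraries were below both control libraries, and each pair of replicates lay close together; 41.2% of all tested genes had both cold libraries below both control libraries. The mean went from 128 ± 3.25 to 98.5 ± 1.40 CPM (SD, n = 2 each), which is -0.38 ± 0.12 (SE) as a log2 fold change (edgeR, adjusted p = 0.0257). The size of this fall was small among the genes tested, since 32.4% of them changed less in either direction. The call was lost in 4 of 12 alternatives, among them DESeq2 (-0.36, adjusted p = 0.0547), without control replicate 1 (-0.34, adjusted p = 0.227) and without control replicate 2 (-0.42, adjusted p = 0.143), and the adjusted p ranged from 0.00414 to 0.227 over all 12.

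zep1 encodes zeaxanthin epoxidase, which converts zeaxanthin through antheraxanthin into violaxanthin, on the branch that supplies abscisic acid. It had 1335 and 1008 fragments in control against 4588 and 4668 in cold. In CPM these are 44.5 and 38.7 in control and 197 and 250 in cold. Both cold libraries were several times above both control libraries, and the gap between the groups far exceeded the spread within them. Of all tested genes, 38.2% had both cold libraries above both control libraries. The mean rose from 41.6 ± 4.12 to 223 ± 37.6 CPM (SD, n = 2 each), by 2.42 ± 0.16 (SE) on the log2 scale (edgeR, adjusted p = 4.9e-05). Of the 23169 genes tested, 898 had a higher log2 fold change. The change stayed between 2.21 and 2.58 over 12 alternatives, with an adjusted p of at most 0.000796.

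vp14 encodes a 9-cis-epoxycarotenoid dioxygenase, the enzyme that cleaves epoxycarotenoids to xanthoxin, and seeds of vp14 mutants germinate on the ear for lack of abscisic acid. It was the least abundant of the 5 in control, with 37 and 29 fragments, and had 248 and 303 fragments in cold. The levels were 1.23 and 1.11 CPM in control against 10.6 and 16.2 CPM in cold. The control libraries lay close together, and both cold libraries stood far above them, with cold replicate 2 the highest. The mean rose from 1.17 ± 0.0853 to 13.4 ± 3.95 CPM (SD, n = 2 each), by 3.50 ± 0.29 (SE) on the log2 scale (edgeR, adjusted p = 9.5e-05). The ratio of summed fragments, scaled by library size, was 11.1 with a 95% counting interval of 8.61 to 14.6. Such intervals and floors cover counting error at most and leave out the spread between libraries. PCR copies were not told apart by molecular identifiers, so even counting error may be understated. The 95% interval of the fold from edgeR, which includes that spread, was wider, at 7.12 to 18.0. Only 372 of the 23169 genes tested had a higher log2 fold change. Over 12 alternatives the change lay between 3.18 and 3.78.

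ccd1 encodes a carotenoid cleavage dioxygenase that cuts carotenoids and apocarotenoids into volatile ketones such as β-ionone, outside the route to abscisic acid. There were 11688 and 10041 fragments in control against 13043 and 12621 in cold. The levels were 390 and 385 CPM in control against 559 and 675 CPM in cold. Both cold libraries were above both control libraries, which lay almost level. The mean rose from 388 ± 3.07 to 617 ± 82.2 CPM (SD, n = 2 each), by 0.67 ± 0.16 (SE) on the log2 scale (edgeR, adjusted p = 0.00919). That size lay in the middle of all genes, 51.4% of which changed less in either direction. Library totals alone lowered it to 0.45 (adjusted p = 0.0208). The call was lost without control replicate 1 (0.69, adjusted p = 0.0713) and without control replicate 2 (0.65, adjusted p = 0.0995), and the adjusted p ranged from 7.8e-05 to 0.0995 over 12 alternatives.

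**Figure D2:**
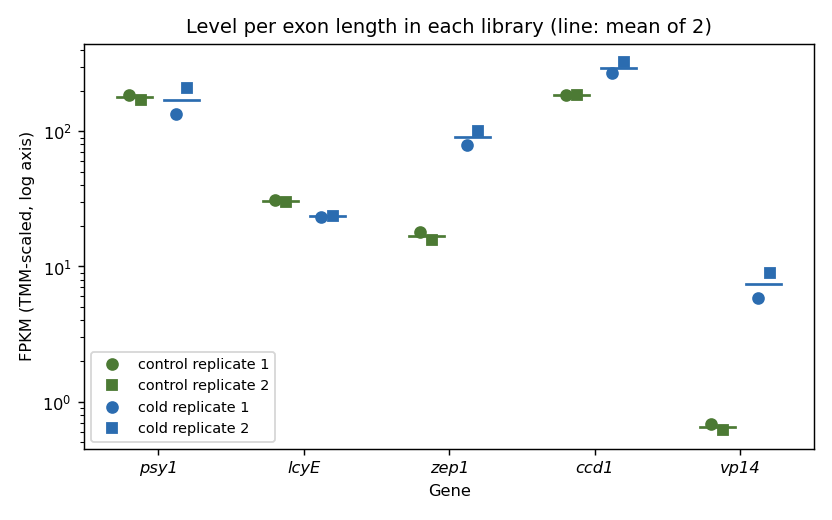
Level per exon length (FPKM, log axis) of each gene in each library, with green for control, blue for cold, circles for replicate 1, squares for replicate 2 and a line for the mean of 2. The groups are apart for lcyE, zep1, ccd1 and vp14 and overlap for psy1, whose cold libraries lie at 135 and 207 FPKM.

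Levels can be compared between genes only per length, here as FPKM, which is CPM with TMM factors divided by the kilobases of exon. In control, ccd1 (187 and 185 FPKM in replicates 1 and 2) and psy1 (186 and 171 FPKM) were highest and their ranges overlapped. lcyE followed at 31.1 and 30.1 FPKM, zep1 at 18.0 and 15.7 FPKM and vp14 at 0.680 and 0.613 FPKM, and these neighbours in the order did not overlap. In cold the order was ccd1 (268 and 324 FPKM), psy1 (135 and 207 FPKM), zep1 (79.6 and 101 FPKM), lcyE (23.2 and 23.7 FPKM) and vp14 (5.85 and 8.93 FPKM). No neighbours overlapped in the cold order, and zep1 and lcyE had changed places at the deposited lcyE length.

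Against all tested genes, the FPKM of psy1 and ccd1 was above 98.1% and 98.2% of genes in control and above 97.8% and 98.8% in cold. These genes were abundant in both conditions. lcyE was above 86.5% of genes in control and 79.9% in cold. zep1 moved from above 76.3% to above 95.3% of genes. vp14 moved from above 10.0% to above 55.3%, that is from among the least expressed tested genes to about the middle.

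**Figure D3:**
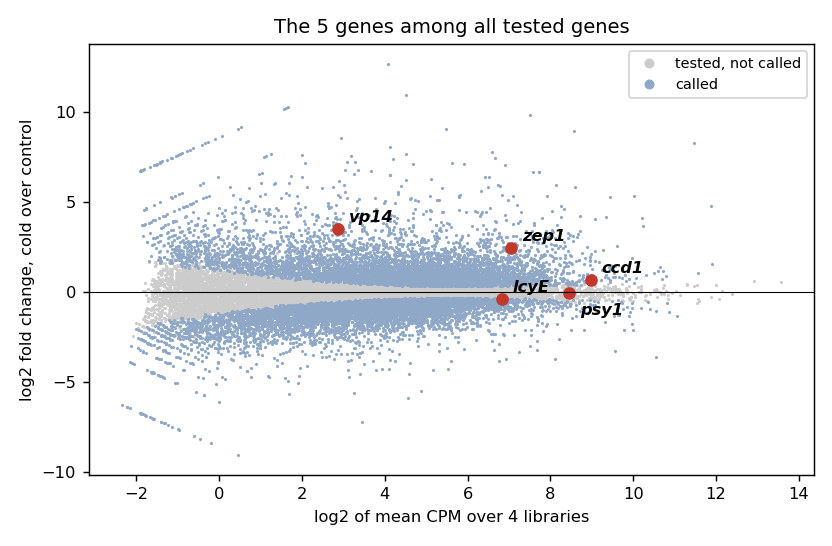
log2 fold change (cold over control) against the log2 of mean CPM over the 4 libraries for all 23169 tested genes, called genes in blue and others in grey, with the 5 genes in red. vp14 at 3.50 and zep1 at 2.42 lie above most tested genes, and psy1 lies near the zero line.

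Within each library, transcripts of these genes were compared as ratios of FPKM, which no scaling between libraries can alter. The ratio of zep1 to lcyE was 0.579 and 0.521 in control and 3.42 and 4.26 in cold. The groups were far apart. That the epoxidase transcript was the more abundant of the pair in cold rests on the deposited lcyE length of 4194 bases, of which blocks 1 to 7 make up 1211. The ratio of vp14 to zep1 was 0.0377 and 0.0392 in control and 0.0736 and 0.0883 in cold, so the dioxygenase transcript also increased relative to that of the epoxidase. The ratio of ccd1 to psy1 was about 1 in control replicate 1, 1.08 in control replicate 2, and 1.99 and 1.56 in cold. The ratio of lcyE to psy1 was 0.167 and 0.176 in control and 0.173 and 0.114 in cold, and these groups overlapped. With 2 libraries against 2, an exact two-sided permutation test cannot go below p = 0.333, so the ratios were not tested.

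As shares of the summed FPKM of the 5 genes, zep1 went from 4.26% and 3.90% in control to 15.6% and 15.2% in cold. vp14 went from 0.161% and 0.153% to 1.15% and 1.34%. psy1 went from 44.0% and 42.5% to 26.3% and 31.2%, and lcyE from 7.37% and 7.47% to 4.55% and 3.57%. ccd1 held 44.2% and 45.9% in control and 52.4% and 48.7% in cold. The 5 shares are not independent of each other because they sum to the whole, and they were not tested. The share of psy1 was lower while its own level was not called, as the summed FPKM was 423 and 402 in control and 511 and 665 in cold.

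**Figure D4:**
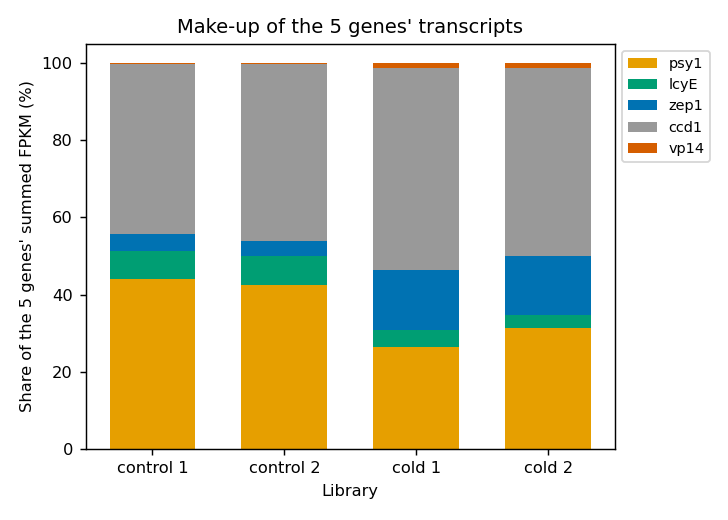
Share in percent of the summed FPKM of the 5 genes held by each gene in each library. zep1 widens from about 4% in the control libraries to over 15% in the cold libraries, and vp14 is visible in the cold libraries only, at 1.15% and 1.34%.

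The cold libraries differed from each other more than the control libraries for each of these genes except lcyE. The column headers give both control libraries the same tag and each cold library a tag of its own. What these tags mean is not in the labels, and their part in this spread was not tested. The ratio of cold replicate 2 to cold replicate 1 in CPM was 1.54 for psy1, 1.53 for vp14, 1.27 for zep1, 1.21 for ccd1 and 1.02 for lcyE. All 5 ratios were above 1, while 50.7% of all tested genes had more CPM in cold replicate 2. The ratio of control replicate 2 to control replicate 1 lay between 0.869 for zep1 and 0.989 for ccd1. All 5 were thus below 1, while 50.2% of all tested genes had more CPM in control replicate 2. For vp14 and zep1 these ratios were far smaller than the folds between conditions, and for psy1 the ratio was larger than its fold between conditions.

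**Figure D5:**
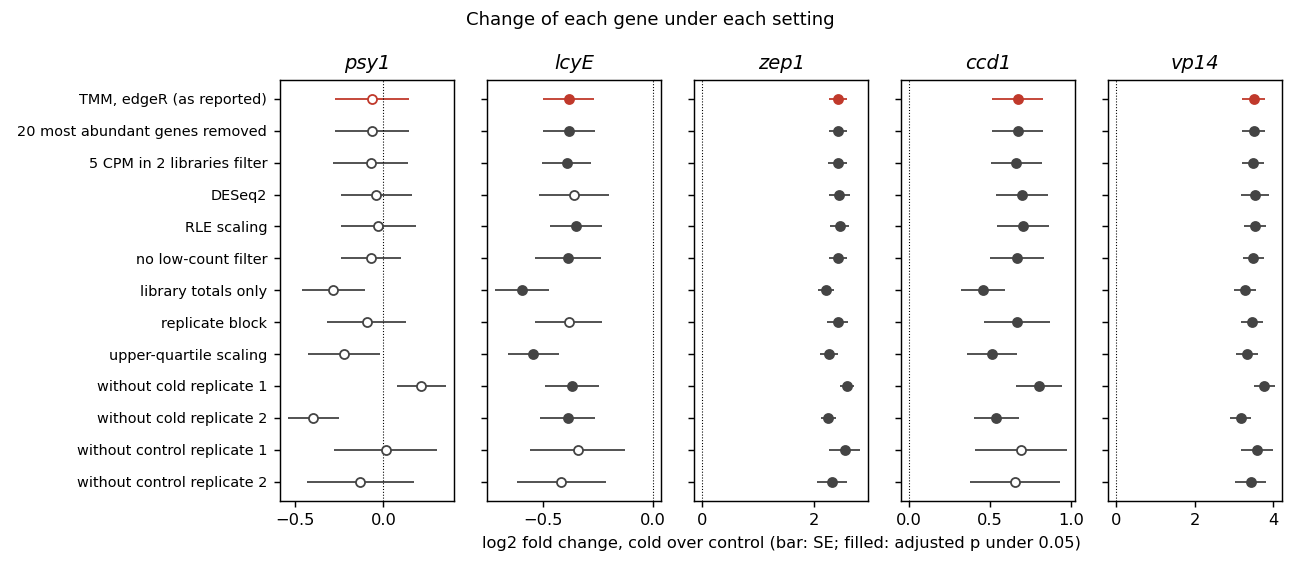
log2 fold change with its standard error for each gene (panels, each with its own horizontal scale) under the reported setting (red) and 12 alternatives, filled where the adjusted p is under 0.05. zep1 and vp14 are filled throughout, between 2.21 and 2.58 and between 3.18 and 3.78, while psy1 is open throughout and crosses zero.

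For each gene the tested gene with the most similar profile was sought by the Euclidean distance of log2 CPM over the 4 libraries, so that both level and change count. For vp14 it was Zm00001d038181 on chromosome 6, at a distance of 0.45, with 36 and 40 fragments in control and 243 and 283 in cold. It was the only gene within 0.5 of vp14. For zep1 it was Zm00001d020025 on chromosome 7, at a distance of 0.19, with 1457 and 1099 fragments in control and 4746 and 4514 in cold, and 18 genes lay within 0.5. For lcyE it was Zm00001d045085 on chromosome 9, at a distance of 0.06, with 3800 and 3373 fragments in control and 2282 and 1827 in cold, and 178 genes lay within 0.5. The radius held 33 genes for psy1 and 12 for ccd1, the nearest being a single-exon gene on chromosome 5 (213760677 to 213761423) and a gene of 16 exon blocks on chromosome 7 (151705669 to 151712216). With only 4 libraries such likeness describes these values and no more.

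Other genes of the pathway were listed by symbol in 4 groups: isoprenoid precursors (19 symbols), other steps of carotenoid synthesis (30), the xanthophyll cycle and other cleavage enzymes (20), and later abscisic acid synthesis, breakdown and response (33). Of these 102 symbols 29 have a RefSeq record, and 0 could be linked to an identifier of the deposited table, so they were not analysed here.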

How the data were processed

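RNA-seq of maize seedlings was analysed from one table of raw counts of fragments per gene, deposited by the authors with a column per library. Per the file headers it was made with featureCounts 1.6.4 on the B73 RefGen_v4 annotation, release 43, counting read pairs, without strand, with multi-mapping and multi-overlapping reads at the default, which omits them. The submitters' processing notes also list fastp and HISAT2, whose versions are not given in the sources consulted. Reads shared by near-identical copies are thus absent, and antisense reads are counted as sense. The deposited exon lengths equalled the merged exon coordinates at every locus (0 differed).

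The 5 genes and the symbol lists were chosen with earlier results of these data known. All 46430 loci entered the fit. filterByExpr (minimum count 10, minimum total 15) left 23169 genes, scaled by TMM factors of 1.05, 1.10, 0.966 and 0.893. Cold was set against control in edgeR 4.0.16 (R 4.3.3) by the two-sided quasi-likelihood F test, with no other term in the model, with Benjamini-Hochberg adjustment. The standard error is the log2 fold change divided by the square root of F. FPKM is CPM per kilobase of exon. The rule for named genes was all 5 genes, the tested gene nearest to each in profile (log2 CPM with a prior count of 2), and the tested neighbour on each side. Replicates were checked for repeat deposits by a chi-square test over genes with at least 20 fragments, which gave 11.3 (control) and 25.0 (cold) per degree of freedom, far above sampling noise. As alternatives, the scaling was changed (RLE, upper quartile, library totals, or without the 20 most abundant genes), DESeq2 1.42.0 was used, the filter was dropped or set to 5 CPM in 2 libraries, a replicate block was added, thresholds were tightened, and each library was left out. On simulated data over 23169 genes the test recovered 75 of 100 genes changed 2-fold and 98 of 100 changed 4-fold, with 16 false calls. Only these genes were changed, in either direction, and genes with few fragments were not among them. In the data 54.0% of genes were called, so these rates cannot be carried over.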

Additional observations from a re-analysis of the deposited data

How the results depend on the processing

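zep1 and vp14 kept their direction and call under all 12 alternatives, with log2 fold changes of 2.25 to 2.58 and 3.18 to 3.78 when a library was left out. ccd1 ranged from 0.54 to 0.80 with a library left out and lost its call without either control library. psy1 ranged from -0.40 to 0.22 with a library left out, was positive without cold replicate 1 (0.22) and control replicate 1 (0.01), and was called under no alternative. lcyE ranged from -0.42 to -0.34 with a library left out. Its call was lost without either control library, with DESeq2 (-0.36) and with the replicate block (-0.38, adjusted p = 0.0649, edgeR). DESeq2 and the block used all 4 libraries, and the cause of the lost calls was not tested. The number of genes called higher was 2 to 3 with a library left out, and the number called lower was 0 to 1. The number called lower was also 0 with DESeq2, with the replicate block, at an adjusted p under 0.01 and at a change of at least 2-fold. At an unadjusted p under 0.05 it was 1 with edgeR, with DESeq2 and with the block, and 0 without either control library. Whether equal replicate numbers pair the samples is not in the labels. Same-numbered deviations correlated at -0.071 across genes, which with 2 libraries per group cannot decide it. The block changed no call among the 5 genes other than that of lcyE. Library totals and upper-quartile factors moved the median log2 fold change of all genes to -0.24 and -0.19. Relative to that median, lcyE was at -0.35 under both and under TMM factors. Over all genes, 6256 were called higher and 6259 lower. For ccd1 the log2 fold change was 0.69 without control replicate 1 and 0.65 without control replicate 2, against 0.67 with all 4 libraries. Its SE was 0.28 in both of these fits, against 0.16 with all 4 libraries. Depth limits vp14 most, at 29 and 37 control fragments.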

Other observations

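Of the 10 tested genes nearest to the 5 genes on either side, 3 were higher in cold, 2 were lower and 5 were not called (edgeR), where 27.0% of all tested genes were called in each direction. Directly downstream of psy1, 477 bases beyond its end and on the same strand, lies a locus (chromosome 6, 85065660 to 85075694) with 8 and 6 fragments in control and 31 and 37 in cold, which is 2.70 ± 0.49 (SE) as a log2 fold change (adjusted p = 0.00289) while psy1 itself was not called. The neighbour upstream of psy1, 42645 bases away, fell by 1.28 on the log2 scale (SE 0.12, adjusted p = 0.00017). Upstream of lcyE, 19990 bases away, a gene rose by 1.68 (SE 0.45, adjusted p = 0.0151), and the gene downstream was not called (-0.82, adjusted p = 0.139). Neither neighbour of ccd1 was called, at log2 fold changes of 0.23 and -0.29 (adjusted p = 0.218 and 0.0613). zep1 lies between a gene that fell by 1.10 on the log2 scale (SE 0.22, adjusted p = 0.00464), 1183 bases downstream, and one that rose by 1.99 (SE 0.38, adjusted p = 0.00387), 3254 bases upstream, all on the minus strand. The neighbours of vp14, 28955 and 62301 bases away, had log2 fold changes of -0.43 each and were not called (adjusted p = 0.160 and 0.292).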
